A study of Homo sapiens with 24 samples.

Results

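Open chromatin of the ENZ-resistant subline RES-A was compared with that of its parent LNCaP after both had been kept in solvent alone. The comparison rests on 6 of the 24 FAIRE-seq libraries of the series, the 3 titled LNCaP-R-DMSO and the 3 titled LNCaP-DMSO, and these titles chose them. LNCaP is a human prostate cancer line that depends on androgen, and its derivative RES-A was selected over rising doses for resistance to enzalutamide (ENZ), a drug that blocks the action of androgens. Both sublines spent 3 days in medium with 5% charcoal-stripped serum, which is poor in androgens, and 18 h with DMSO. During the 3 days RES-A alone also received 10 µM ENZ, so that subline and earlier drug exposure cannot be told apart, and the sources used here do not say whether ENZ was washed out before DMSO was given. The other 18 libraries, used below to look at the same regions again, came from both sublines given 10 nM DHT (dihydrotestosterone, an androgen), 10 µM ENZ or both in place of DMSO, 3 libraries each. Each group is 1 subline in biological triplicate, so the spread between libraries is the spread between cultures of 1 line.

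FAIRE (formaldehyde-assisted isolation of regulatory elements) recovers DNA that is not held by nucleosomes, which marks active promoters and enhancers. In prostate cells pioneer factors such as FOXA1 bind closed chromatin and open enhancers, through which androgens switch on genes such as KLK3, which encodes prostate-specific antigen. A FAIRE peak counts DNA fragments, so its height depends on how many copies of a stretch of DNA the cells carry as well as on how open it is, and peak lists do not tell these apart.

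The lists held 194720, 262245 and 129409 peaks in LNCaP and 194848, 204397 and 199686 in RES-A. The LNCaP libraries lay on both sides of the RES-A libraries. RES-A had 199644 ± 4775 peaks and LNCaP 195458 ± 66421 (SD, n = 3 each), a difference below the spread between libraries (exact two-sided permutation test, p = 0.7, with 0.1 the smallest p that 3 against 3 allows). Without LNCaP replicate 3, the shallowest library, the sign turned, with a mean difference of -28838.8 peaks (RES-A minus LNCaP). Depth was judged by the genome-wide background that the peak caller had used, which was 2.58, 4.84 and 1.95 reads per base in LNCaP and 2.73, 3.50 and 3.49 in RES-A.

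Since the lists differed in depth, the 50000 peaks of each library with the highest −log10 p were compared. The base-pair Jaccard index, the shared part of all bases covered, was 0.662 to 0.676 for the 3 pairs of RES-A libraries and 0.497 to 0.603 for the 3 pairs of LNCaP libraries. For the 9 pairs across the sublines it was 0.422 to 0.450. Every pair within a subline therefore shared more than every pair across.

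Merging the top-ranked peaks of the 6 libraries at an overlap of 1 bp gave 82543 regions, of which 25181 had a peak in all 6 libraries. A top-ranked peak in all 3 RES-A libraries and in no LNCaP library was found in 6726 regions (8.15% of the merged regions), and the reverse in 5256 regions (6.37%). Without LNCaP replicate 3 the LNCaP count was 8342. These counts carry no test, because no single region can pass a threshold of 0.05 with 3 against 3 libraries. Most of them were differences in rank rather than in presence. Regions where the other subline had no peak of any rank numbered 1071 for RES-A (1.3%) and 579 for LNCaP (0.701%).

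**Figure D1:**
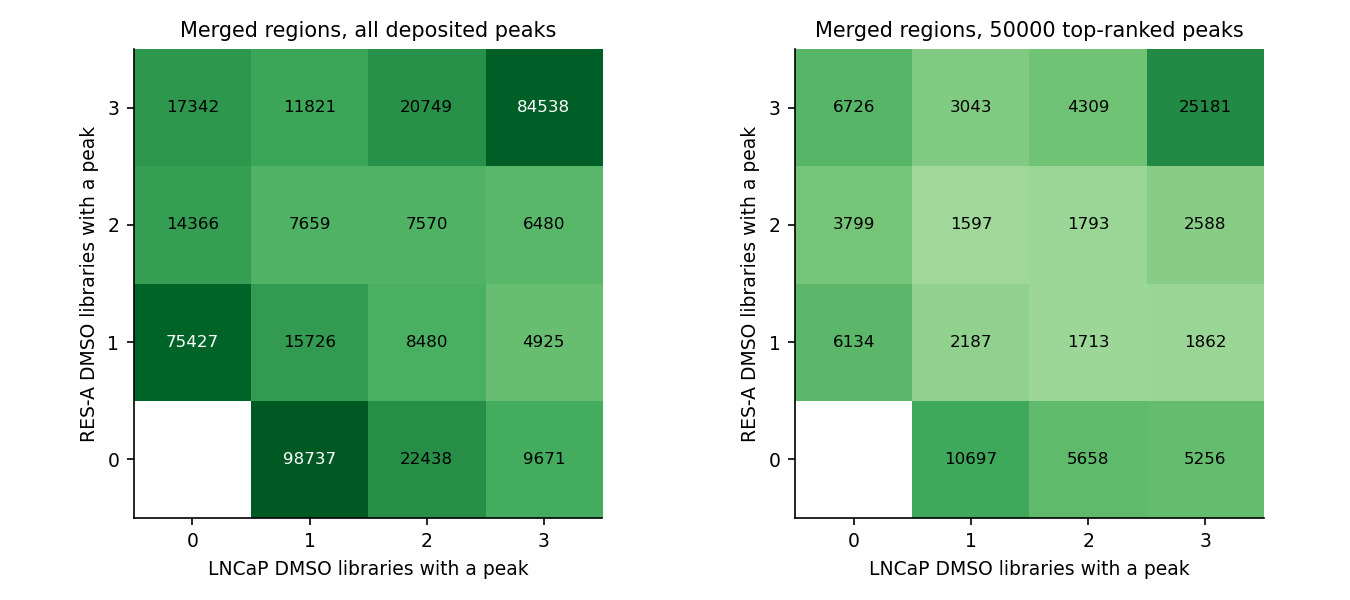
Number of merged regions by how many RES-A DMSO libraries (vertical axis, 0 to 3) and LNCaP DMSO libraries (horizontal axis, 0 to 3) had a peak there, for all deposited peaks (left) and the 50000 top-ranked peaks of each library (right). Darker green marks more regions on a log scale; with top-ranked peaks, 25181 regions had a peak in all 6 libraries, 6726 only in the 3 of RES-A and 5256 only in the 3 of LNCaP.

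The regions separating the groups had a lower median fold enrichment than the shared ones. The median fold enrichment, a peak's height over the background expected there, was 9.05 for the 6726 regions of RES-A, 7.50 for the 5256 regions of LNCaP and 9.80 for the regions of all 6 libraries. RES-A regions had a median length of 414 bp and LNCaP regions one of 501 bp.

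The 18 libraries of the other treatments had no part in choosing these regions. Of the RES-A regions, a top-ranked peak was present in 61.9% to 92.1% in the 9 other RES-A libraries and in 3.75% to 11.9% in the 9 other LNCaP libraries. Of the LNCaP regions, 45.97% to 91.5% had one in the other LNCaP libraries and 5.84% to 29.1% in the other RES-A libraries. The lowest LNCaP value, 45.97%, was that of LNCaP ENZ replicate 1, which had the fewest peaks of the 24 libraries (73254). No library of one subline reached a library of the other.

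The share differed between the treatments of RES-A. After DHT, 28.8%, 29.1% and 28.01% of the LNCaP regions had a top-ranked peak in the 3 RES-A libraries. With ENZ these shares were 8.35%, 5.84% and 10.7%, and with DHT and ENZ together they were 17.4%, 17.2% and 18.99%. The groups of 3 did not overlap. The RES-A regions ran the other way, with 61.9% to 66.9% in RES-A given DHT, 82.7% to 83.0% with DHT and ENZ, and 88.1% to 92.1% with ENZ. These shares describe regions chosen in DMSO and were not tested.

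**Figure D2:**
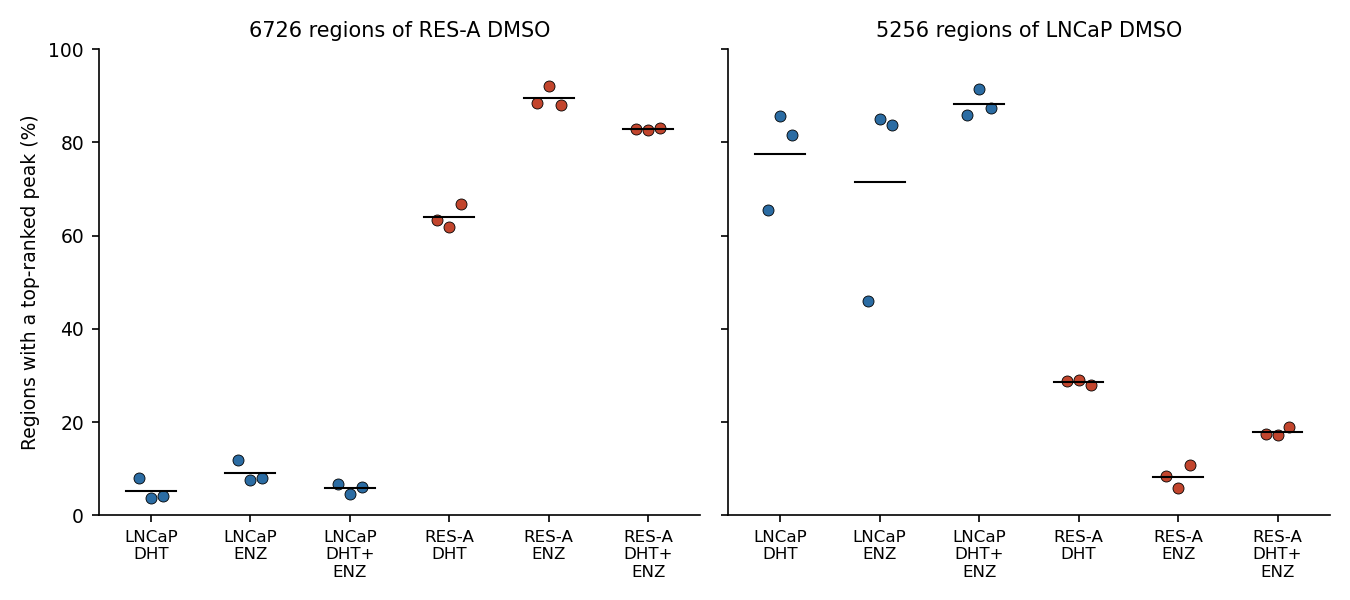
Percentage of the 6726 regions of RES-A DMSO (left) and the 5256 regions of LNCaP DMSO (right) with a top-ranked peak in each library of the other treatments. Points are libraries (blue LNCaP, red RES-A, 3 per group) and lines their means; in RES-A the LNCaP regions reached 28.01% to 29.1% with DHT and 5.84% to 10.7% with ENZ.

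Of the 1071 RES-A regions without any LNCaP DMSO peak, those ranked highest lay on chromosomes 1, 17, 3 and 22. The first, chr1:240759969-240761104 (hg19, 1q), had peaks of 109, 131 and 148 overlapping fragments, or 10.7-, 10.5- and 11.97-fold enrichment. The region with the highest fold among the 5, chr3:14469682-14470084 on 3p, had enrichments of 18.0, 19.4 and 20.7. The others were chr1:204666942-204667419, chr17:37071949-37072355 and chr22:39688590-39689069, at 13.9- to 18.2-fold. All 5 had a peak in 9 of 9 other RES-A libraries and in 0 of 9 other LNCaP libraries.

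The 5 highest of the 579 LNCaP regions more often had a peak in the other libraries of the opposite subline. The first, chr8:22877431-22877928 on 8p, reached 76, 132 and 51 fragments, or 12.6-, 12.9- and 11.5-fold enrichment, and had a peak in 9 of 9 other LNCaP libraries but also in 8 of 9 other RES-A libraries. Next came chr5:50564423-50564904 and chr7:84971778-84972500, with peaks in 3 and 5 of the other RES-A libraries. The remaining pair were chr5:148205788-148206229, with 0 such libraries, and chr8:88377495-88378510, with 1. Over all 579 regions a peak of any rank was seen in 11.7% to 40.4% of regions in the other RES-A libraries, against 0.840% to 12.5% of the 1071 RES-A regions in the other LNCaP libraries. Depth differs between these 2 sets. RES-A regions had to be without a peak in LNCaP replicate 2, with 262245 peaks, but LNCaP regions only in RES-A lists of at most 204397. Some of the other LNCaP libraries were also shallow, with 73254 peaks in LNCaP ENZ replicate 1. The part of depth in this contrast was not tested.

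The question was then put to regions that both sublines had open. All deposited peaks merged into 405929 regions, and 84538 of them had a peak in all 6 libraries. Peak height was taken as the pileup, the number of fragments overlapping the summit, divided by the library's median over these regions (30, 55 and 19 fragments in LNCaP, 34, 42 and 47 in RES-A). This relative pileup is 1 for a peak of median height. Its log2 was compared by limma, with Benjamini-Hochberg adjustment over all 84538 regions.

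RES-A was higher at 13686 regions (16.2% of those tested) and lower at 13831 (16.4%). The median difference was 0.72 on the log2 scale among the higher regions and -0.83 among the lower, with a median SE of 0.20, so that most changes were moderate. A difference of at least 2-fold was found at 2950 higher and 4561 lower regions, and of at least 4-fold at 53 and 155. Correlation of log2 pileup across regions, which are not independent replicates, was 0.919 to 0.926 within RES-A, 0.816 to 0.886 within LNCaP and 0.617 to 0.667 between them. With fold enrichment in place of pileup, which divides by the background near the peak, the counts fell to 7362 higher and 8481 lower.

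**Figure D3:**
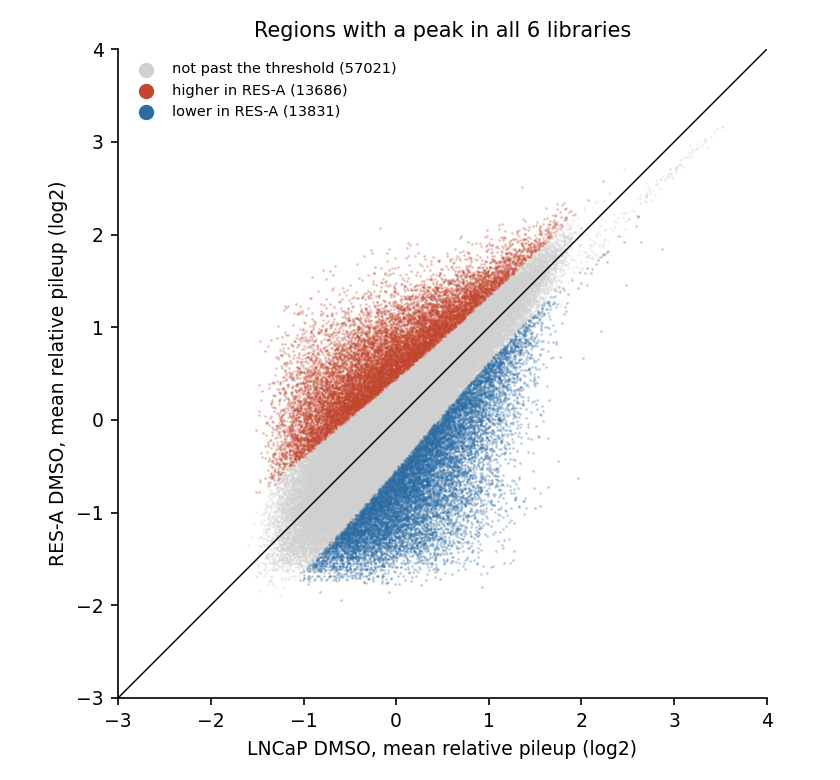
Mean relative pileup (log2) of LNCaP DMSO (horizontal axis, n = 3) and RES-A DMSO (vertical axis, n = 3) for the 84538 regions with a peak in all 6 libraries; each point is a region and the line marks equal height. Red regions were higher in RES-A (13686) and blue ones lower (13831) at an adjusted p under 0.05, on both sides of the line.

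The largest increase was at chr10:35194929-35195386 on 10p. Its relative pileup was 0.567, 0.509 and 0.526 in LNCaP and 3.18, 2.71 and 2.87 in RES-A, so that a low peak of the parent was among the tall ones in RES-A. The difference was 2.45 ± 0.17 (log2, SE) or 5.46-fold (limma, adjusted p = 5.51e-11). The next, at 5.29- to 5.39-fold, were chr7:37580501-37580940, chr7:75240850-75241617, chr17:37873122-37873501 and chr21:46358206-46358675. At chr7:75240850-75241617 the difference was also seen between the libraries given DHT (2.73, log2) and those given ENZ (2.43).

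The largest decrease was at chr4:98545268-98545828 on 4q. Relative pileup was 2.33, 2.60 and 2.11 in LNCaP and 0.353, 0.381 and 0.298 in RES-A. The difference was -2.77 ± 0.20 (log2, SE), with LNCaP 6.83-fold higher (limma, adjusted p = 1.07e-10). Of the 4 regions that came next, chr4:90878311-90878755 and chr4:66258100-66258748 were on the same arm, and the others were chr8:7643559-7644220 on 8p and chr12:92111960-92112591 on 12q. At the 12q region the difference was -0.48 (log2) between libraries given DHT, but -2.04 between those given ENZ.

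Direction in the other treatments was read where a region had a peak in all 6 libraries of a treatment. Of the higher regions, 97.9% of 6483 kept their direction with DHT, 99.2% of 6430 with ENZ and 98.9% of 12432 with DHT and ENZ together. Of the lower regions it was 84.8% of 8311, 93.1% of 6686 and 95.3% of 11666. Over all regions tested, RES-A was higher in 58.5%, 59.4% and 53.7%. The median difference of the lower regions was -0.51 with DHT, -0.59 with ENZ and -0.65 with both.

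The differences were not spread evenly over the chromosomes. Peaks were counted per chromosome arm as a share of the 50000 top-ranked peaks, and shares were compared by limma on the log2 scale over 42 arms. The share was higher in RES-A on 12 arms (28.6% of those tested) and lower on 15 (35.7%), and on all 27 the groups did not overlap. They also did not overlap on 2p, 2q, 3q, 8q, 9q, 12q and 22q, which did not pass the threshold. Since the shares of a library add up to a fixed sum, a higher share on one arm lowers the others.

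The short arm of chromosome 8 differed most. It held 1.71%, 1.68% and 1.68% of the LNCaP peaks and 0.719%, 0.669% and 0.651% of the RES-A peaks, a difference of -1.32 ± 0.04 (log2, SE; limma, adjusted p = 1.07e-06). All RES-A libraries were below all LNCaP libraries. The long arm of the same chromosome differed by -0.06 ± 0.02 (adjusted p = 0.053). On 8p, 747 of 1077 shared regions (69.4%) were lower in RES-A and 13 were higher. The arm also held 272 regions that separated the groups in favour of LNCaP and 14 in favour of RES-A.

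Next came 4q, with 4.37%, 4.48% and 3.95% of the peaks in LNCaP and 2.85%, 2.89% and 2.88% in RES-A, and the Y chromosome, with 0.241%, 0.235% and 0.321% against 0.199%, 0.181% and 0.175%. The arm 15q held 3.43%, 3.46% and 3.42% in LNCaP and 2.60%, 2.57% and 2.64% in RES-A. These differences were -0.57 ± 0.05, -0.51 ± 0.13 and -0.40 ± 0.02 (log2, SE; limma, adjusted p = 1.63e-04, 0.0126 and 6.03e-06). The arm 11p followed at -0.25 ± 0.03. On 4q, unlike 4p (-0.06 ± 0.03, adjusted p = 0.102), 1162 of 3251 shared regions (35.7%) were lower in RES-A.

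The arms with more RES-A peaks were led by both arms of chromosome 6. The short arm 6p held 1.95%, 1.98% and 1.98% of LNCaP peaks and 3.02%, 3.03% and 3.09% of RES-A peaks, a difference of 0.63 ± 0.02 (log2, SE; limma, adjusted p = 1.07e-06). All RES-A libraries were above all LNCaP libraries. The differences were 0.40 ± 0.04 on 6q, 0.38 ± 0.05 on 21q, 0.34 ± 0.02 on 1p and 0.32 ± 0.04 on 16q. On 6p, 44.2% of 2012 shared regions were higher in RES-A and 3.88% were lower.

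**Figure D4:**
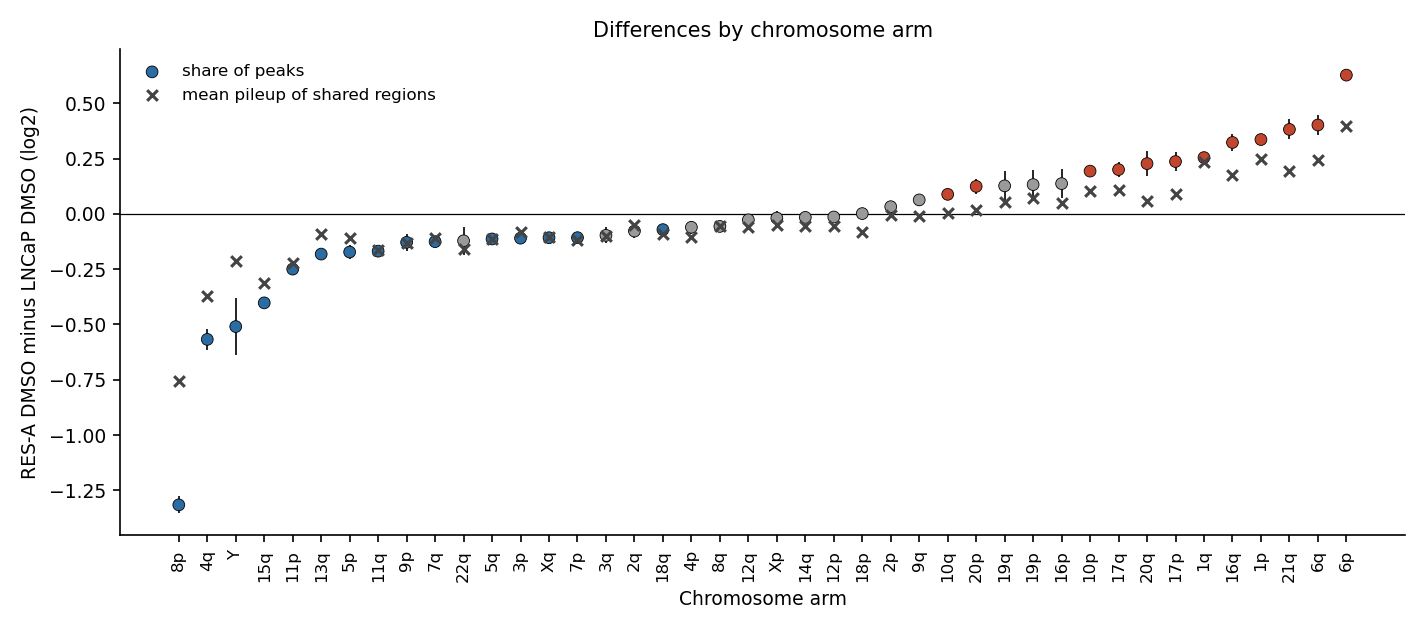
Difference between RES-A DMSO and LNCaP DMSO (log2) by chromosome arm, as share of top-ranked peaks (circles with SE bars, n = 3 per group) and as mean relative pileup of the shared regions (crosses), ordered by share. Red circles were higher and blue ones lower at an adjusted p under 0.05, and grey ones did not pass; 8p is lowest at -1.32 and 6p highest at 0.63.

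Mean peak height followed the share. The mean log2 relative pileup of shared regions was higher in RES-A on 7 arms (16.7%) and lower on 18 (42.9%). Without LNCaP replicate 3 the higher arms numbered 16, and without RES-A replicate 1, 2 or 3 the lower arms numbered 11, 8 and 9. On 21 arms both measures passed the threshold, in the same direction on all 21. Both come from the same lists, and taller peaks rank higher on −log10 p, so this match is partly built in. The local background around the shared peaks, relative to the genome-wide one, was -0.48 (log2, RES-A minus LNCaP) on 8p and 0.45 on 6p. It was derived from the pileup and fold enrichment of the same peaks, so it is not a measure independent of the pileup. Across arms its difference and that of the pileup had r = 0.989, a correlation partly built in by this derivation (a description over 42 arms, whose peaks share libraries). With fold enrichment in place of pileup, 1 arm was higher and 5 were lower, and the difference on 8p was -0.28 rather than -0.75. The part of the local background in the differences by arm was not tested.

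The same arms stood out with the other treatments. Of the 27 arms past the threshold in DMSO, 23 passed in the same direction with DHT, 22 with ENZ and 26 with DHT and ENZ. On 8p the difference was -1.25, -1.26 and -1.24 (log2), and on 6p it was 0.70, 0.73 and 0.61. Removing each arm's mean level from the shared regions left 12831 higher and 11414 lower, so that regions also differed within arms.

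Within arms, the differences lay in stretches. In 10-Mb segments with at least 20 shared regions, the 4 segments wholly on 8p had medians of -0.65, -0.78, -0.79 and -0.80 (log2, RES-A minus LNCaP). The segment from chr8:40000001, which holds the end of 8p and the start of 8q, had a median of -0.43. The highest medians were on chromosome 6, at 0.73 and 0.78 for the segments that start at chr6:40000001 and chr6:50000001 and at 0.65 and 0.71 for those that start at chr6:70000001 and chr6:80000001. Chromosome 13 held both signs, with 0.44 in the segment from chr13:20000001 and -0.59 in that from chr13:60000001, which the share of the whole arm (-0.18 ± 0.02) did not show.

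Counts of all peaks in 1-Mb windows were examined after the arms had been seen. Windows were tested if they held a mean of at least 20 peaks over the 6 libraries. RES-A had a higher share of its peaks in 641 of 2745 windows (23.4%) and a lower share in 630 (23.0%) at an adjusted p under 0.05 (limma). Differences of at least 2-fold were more frequent among the lower windows, with 163 at least 2-fold lower and 59 at least 2-fold higher. In chr8:14000001-15000000 LNCaP had 66, 103 and 34 peaks and RES-A 4, 5 and 4, a 13.7-fold lower share in RES-A. In chr4:97000001-98000000 the counts were 71, 94 and 37 against 5, 6 and 7, and in chr13:56000001-57000000 they were 47, 79 and 24 against 3, 4 and 6.

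In the other direction, chr7:68000001-69000000 had 4, 2 and 1 peaks in LNCaP and 35, 44 and 42 in RES-A, a 14.9-fold higher share in RES-A. In chr2:116000001-117000000 LNCaP had 5, 10 and 3 peaks and RES-A 34, 43 and 43, and in chrX:140000001-141000000 the counts were 5, 8 and 3 against 35, 35 and 41. The 9 RES-A libraries of the other treatments had 33 to 48 peaks in the chromosome 7 window and the 9 LNCaP libraries 2 to 4. The windows named were the 3 with the largest difference in each direction and were chosen after their values were seen. All had fewer than 20 peaks in every library of the lower subline. They thus passed the filter only through the other subline, and no p-values are given for them.

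The regions with no peak of any rank in the other subline also gathered in places. The window chr5:174000001-175000000 held 9 of the RES-A regions, and its peaks of any rank numbered 15, 23 and 13 in LNCaP and 69, 67 and 59 in RES-A. Windows chr16:75000001-76000000 and chr16:85000001-86000000 held 5 each. Of the LNCaP regions, 7 lay in chr5:30000001-31000000, where LNCaP had 80, 109 and 39 peaks and RES-A 10, 9 and 5. Another 6 each lay in chr13:63000001-64000000 and chr4:135000001-136000000.

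The question whether known prostate genes took part was put to 53 genes, whose hg19 spans were entered by hand and kept where their length matched the RefSeq gene table. A region was assigned to a gene if it overlapped the gene or 10 kb on either side. All 53 genes had shared regions, 215 in all, of which 34 (15.8%) were higher and 27 (12.6%) lower in RES-A. Over all regions tested these shares were 16.2% and 16.4%, so the listed genes as a whole did not stand apart from the background. The median difference of the 215 regions was 0.06 (log2), against -0.01 over all regions.

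Androgen-induced genes had 47 shared regions at 10 genes, 8 higher and 6 lower in RES-A, with a median difference of 0.06 (log2). The kallikrein genes KLK3, KLK2 and KLK4, which androgens induce, had none that passed the threshold. The region between KLK3 and KLK2, chr19:51372470-51373141, had a relative pileup of 2.83, 3.20 and 2.74 in LNCaP and 2.56, 2.81 and 3.0 in RES-A. It was a tall peak in both sublines, and the groups overlapped, with a difference of -0.07 ± 0.13 (log2, SE; limma, adjusted p = 0.725). Among top-ranked peaks, 2 regions at the 10 genes separated the groups in favour of RES-A and 2 in favour of LNCaP. At TRPM8, which had none of 8 shared regions past the threshold, 1 such LNCaP region had no RES-A DMSO peak of any rank. Regions separating the groups made up 8.15% and 6.37% of all merged regions, and the merged regions at the 10 genes were not counted.

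At other androgen-induced genes regions moved in both directions. At SLC45A3, which encodes a prostate-specific transporter, 3 of 5 regions were lower. The tallest of them, chr1:205633526-205634370 in the gene, had 2.57, 2.18 and 2.37 in LNCaP and 1.06, 0.905 and 0.766 in RES-A, a difference of -1.39 ± 0.16 (adjusted p = 1.29e-07, limma). It was lower although 1q as a whole had more RES-A peaks (0.26 ± 0.02), and with the arm's level removed the difference was -1.63. PMEPA1, an androgen-induced inhibitor of TGF-beta signalling, had 2 of 5 regions lower, and CAMKK2, a kinase gene that androgens induce, had 1 higher and 1 lower of 4.

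TMPRSS2, a serine protease gene that androgens induce, had 3 of 4 regions higher. The one over its start had a relative pileup of 1.33, 1.05 and 1.68 in LNCaP and 2.35, 2.02 and 1.79 in RES-A. All RES-A libraries were above all LNCaP libraries, with a difference of 0.62 ± 0.17 (adjusted p = 0.00456, limma), and of 0.42 with the level of 21q removed. FKBP5, a co-chaperone gene that steroid receptors induce, had 2 of 10 regions higher, but neither passed with the level of 6p removed (0.12 and 0.09). NDRG1, a stress-response gene on 8q, had 2 of 4 higher, and both passed again.

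Among lineage and pioneer factors, 4 of 24 regions were higher (16.7%) and 3 lower (12.5%). The 3 lower ones were all at ETV1, an ETS factor gene that is rearranged in LNCaP. At the region over its start relative pileup was 1.87, 2.05 and 1.84 in LNCaP and 0.529, 0.381 and 0.468 in RES-A, a difference of -2.08 ± 0.20 (adjusted p = 7.09e-09, limma) or 4.21-fold. It remained at -1.96 with the level of 7p removed. At ERG, another ETS factor gene, 3 of 8 regions were higher, 1 of them (1.10 ± 0.19) also with the level of 21q removed, and peaks of any rank numbered 13, 16 and 8 in LNCaP and 26, 32 and 25 in RES-A. FOXA1 had 1 of 4 regions higher, upstream of the gene (0.83 ± 0.23), and HOXB13 and GATA2 had none of 3 each past the threshold. By top-ranked peaks, 2 regions at these genes separated the groups in favour of LNCaP and 0 in favour of RES-A. Over all merged regions such regions made up 6.37% and 8.15%, and the merged regions at these genes were not counted. The one at HOXB13 had no RES-A DMSO peak of any rank. The one at ETV1 had a RES-A DMSO peak of lower rank, so it may be one of the shared regions above.

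Genes of steroid receptors had 29 regions, 5 higher (17.2%) and 6 lower (20.7%). NR3C1, the glucocorticoid receptor gene, had 3 of 6 regions lower and none higher. At the one upstream of the gene relative pileup was 1.47, 1.62 and 1.68 in LNCaP and 1.06, 0.952 and 0.872 in RES-A, a difference of -0.73 ± 0.17 (adjusted p = 0.00125, limma). PGR, the progesterone receptor gene, had 2 of 9 lower. NR3C2, the mineralocorticoid receptor gene on 4q, had 3 of 7 higher, one of them over its start (0.44 ± 0.14), and 1 lower. ESR1, the oestrogen receptor gene on 6q, had the largest increase at any listed gene, in the gene 435 kb from its start: 0.633, 0.709 and 0.842 in LNCaP against 2.47, 2.43 and 2.17 in RES-A, a difference of 1.70 ± 0.17 (adjusted p = 1.02e-08, limma). With the level of 6q removed it was 1.46.

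**Figure D5:**
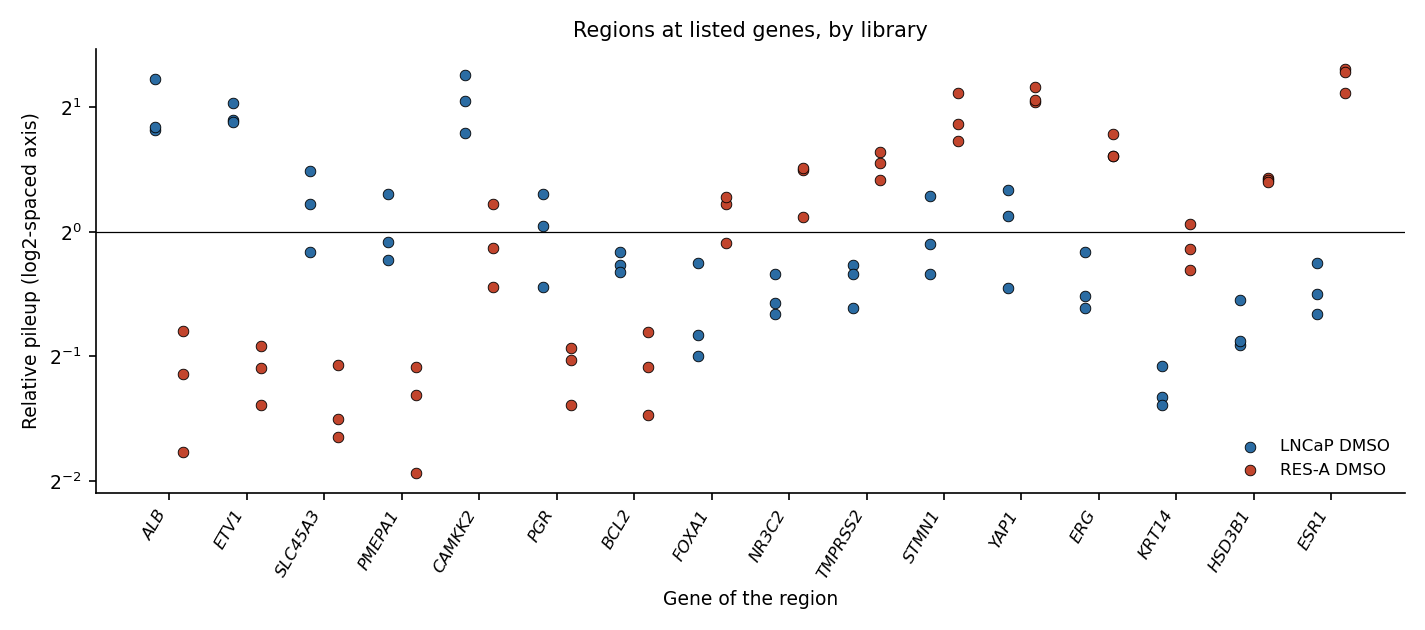
Relative pileup (log-spaced vertical axis, 1 is a peak of median height) in each LNCaP DMSO (blue) and RES-A DMSO (red) library at 1 shared region for each of 16 listed genes, the called region that differed most, ordered from the largest decrease (left) to the largest increase (right). The regions were chosen by their difference. The sublines do not overlap at any of the 16, nor at 58 of all 61 listed regions past the threshold. ETV1 fell from 1.84 to 2.05 in LNCaP to 0.381 to 0.529 in RES-A.

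Neuroendocrine and plasticity genes had 34 shared regions at 11 genes, against a background of 16.2% higher and 16.4% lower over all regions tested. Of these 34 regions, 5 (14.7%) were higher in RES-A and none lower. The 5 were at 5 genes: STMN1, which encodes a microtubule regulator (0.96 ± 0.18), DNMT1, a DNA methyltransferase gene (0.81 ± 0.18), NCAM1, a neural adhesion molecule gene (0.62 ± 0.24), SOX2, a stem cell factor gene (0.52 ± 0.18), and ENO2, a neuronal enolase gene (0.39 ± 0.15). The ENO2 region lay outside the gene, 11.3 kb downstream of its start and within 10 kb of its other end. At SOX2 the region lay over the start, with 0.900, 0.873 and 1.11 in LNCaP and 1.29, 1.33 and 1.47 in RES-A (adjusted p = 0.0258, limma). SYP, CHGA, EZH2, AURKA, ONECUT2 and POU3F2 had no region past the threshold.

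Growth and cell cycle genes had 36 regions, 4 higher (11.1%) and 8 lower (22.2%). BCL2, which blocks apoptosis, had 4 of 12 lower, CDK6, a kinase of the G1 phase, 3 lower and 1 higher of 10, and CCND1, which encodes cyclin D1, 1 of 6 lower, over its start (-0.74 ± 0.19, adjusted p = 0.00362, limma). YAP1, a Hippo pathway coactivator gene, had 3 of 8 higher, led by one in the gene with 0.733, 1.09 and 1.26 in LNCaP and 2.06, 2.24 and 2.09 in RES-A (1.08 ± 0.17). Of the tumour suppressor genes, RB1 had its start region higher (0.60 ± 0.20, adjusted p = 0.0242), and CDKN2A had no region past the threshold.

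Of the androgen enzyme genes, HSD3B1, which makes androgen precursors and belongs to a family of similar copies, had its start region higher. Relative pileup was 0.533, 0.545 and 0.684 in LNCaP and 1.35, 1.33 and 1.32 in RES-A, a difference of 1.19 ± 0.20 or 2.29-fold (adjusted p = 3.40e-05, limma). UGT2B15, CYP17A1 and HSD17B3 had no region past the threshold. Housekeeping genes had 11 regions, 3 higher (27.3%) and 1 lower (9.09%), against 16.2% and 16.4% over all regions tested. TBP on 6q had 3 of 3 regions higher. B2M on 15q had its start region lower (-0.59 ± 0.18), with overlapping groups and no call once the level of 15q was removed (-0.28, adjusted p = 0.246, limma). GAPDH, ACTB, HPRT1 and RPLP0 had none past the threshold.

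Markers of other cell types were checked as well. The epithelial marker CDH1 had a tall start region in both sublines (1.90, 1.65 and 2.16 in LNCaP, 2.03, 2.21 and 2.17 in RES-A), which did not pass the threshold (adjusted p = 0.368, limma), and 1 of its 9 regions was higher (0.37 ± 0.14), but not with the level of 16q removed (0.19, adjusted p = 0.355). Of the 14 regions at KRT5, KRT14, VIM, PTPRC, ALB and MYOD1, 2 were higher (14.3%) and 3 lower (21.4%). KRT14, a marker of basal prostate cells, had 1 of 2 regions higher, in the gene. Relative pileup there was 0.400, 0.382 and 0.474 in LNCaP and 0.912, 0.81 and 1.04 in RES-A (1.14 ± 0.23, adjusted p = 3.19e-04, limma). With the level of 17q removed it was 1.03 and passed again. PTPRC, a leukocyte marker, had 1 higher and 1 lower of 6. ALB, the liver gene for serum albumin on 4q, had a peak over its start in every library and both of its regions were lower in RES-A. The one over its start had 1.93, 2.31 and 1.58 in LNCaP and 0.588, 0.905 and 0.766 in RES-A (-1.37 ± 0.19, adjusted p = 1.89e-06, limma). FAIRE peaks were thus present at loci of genes of other cell types as well as at those of luminal prostate cells.

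HSD3B1 and ALB had the largest rise and the largest fall among start regions whose gene start is also that of the RefSeq promoter entry, so the 250 bases before their starts are shown, 5′ to 3′ on the strand of the gene, from RefSeq in GRCh38.p14, a later build than the hg19 of the peaks.
HSD3B1, chr1:119506953-119507202, plus strand: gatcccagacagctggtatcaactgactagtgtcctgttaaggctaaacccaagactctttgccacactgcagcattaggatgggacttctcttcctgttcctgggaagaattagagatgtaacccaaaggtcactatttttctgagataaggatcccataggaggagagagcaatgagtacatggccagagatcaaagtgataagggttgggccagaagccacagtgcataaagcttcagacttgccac
ALB, chr4:73404037-73404286, plus strand: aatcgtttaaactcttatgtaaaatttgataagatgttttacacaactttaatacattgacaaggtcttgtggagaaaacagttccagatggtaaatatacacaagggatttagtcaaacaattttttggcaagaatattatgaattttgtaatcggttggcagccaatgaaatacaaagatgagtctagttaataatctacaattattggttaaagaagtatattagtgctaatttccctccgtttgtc
G and C made up 46.8% of the HSD3B1 window and 30% of the ALB window. Neither held, on either strand, the letters CACGTG of the E-box, TGTTTAC of the forkhead motif or CCGGAAG of the ETS core, which were found in 6.35%, 2.98% and 8.52% of 35116 RefSeq windows of the same length.

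With the level of its chromosome arm removed, 46 of the 61 listed regions past the threshold passed it again. Those that did not pass were 2 each at FKBP5, ERG and ETV1 and 1 each at NR3C1, NR3C2, PGR, ESR1, BCL2, B2M, TBP, PTPRC and CDH1.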

How the data were processed

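FAIRE-seq libraries, sequenced as single-end reads, were grouped by their titles. Replicate p-values measure the spread between these libraries, and megabase windows were added as a comparison after the data were seen. Reads were aligned by the authors to hg19 with BWA 0.7.8-r455, duplicates were marked with Picard 1.118, and peaks were called per library with MACS2 2.1.0 (versions also in the submitters' processing notes). The options and any control of the peak caller were not given in the sources used here. The deposited lists give a pileup (a signal, not scaled between libraries), −log10 p, −log10 q and a fold enrichment (a ratio to the expected pileup) as the authors' caller wrote them. The highest q was 0.04998.

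Background was derived as (pileup + 1) / fold − 1, on the assumption that 1 had been added to both terms. Its minimum ranks libraries by depth, and read totals were not used. Peaks were kept on chromosomes 1 to 22, X and Y. Arms were split at the widest stretch without peaks, acrocentric chromosomes were counted as 1 arm, and 0.5 was added to peak counts before log2. Limma 3.58.1 in R 4.3.3 was used without pairing (trended variance for regions and windows), with an adjusted p of 0.05, and Python 3.11.15 for the rest. The limma fit was tested on simulated data. Gene spans were kept (53 of 66) if within 2% or 1 kb of the RefSeq length and 3 Mb of its start, and strands came from GENCODE. Shared regions were named by the largest difference with groups not overlapping, regions without a peak in the other subline by mean percentile of −log10 p (both 5 per direction, at most 1 per megabase), windows by their number of such regions and, after seeing the data, by difference (3 per direction each), arms by difference (5 per direction). Some items are not reported here. Members, lists and rules were chosen with earlier results of these data known.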

Additional observations from a re-analysis of the deposited data

How the results depend on the processing

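No directional result below was tested beyond 3 cultures of 1 line per group, and regions without a peak in a library have no measured height. Leaving out 1 library in turn gave a difference in peak number of -28838.8 (without LNCaP replicate 3) to 37579.2, 7407 to 8126 regions separating the groups for RES-A and 5833 to 8342 for LNCaP (the latter without LNCaP replicate 3, with 2 of 2 libraries in place of 3), 10692 to 19070 shared regions higher and 11233 to 16195 lower, 11 to 16 arms higher and 14 to 19 lower by share, 6 to 16 arms higher (16 without LNCaP replicate 3) and 8 to 23 lower by pileup (11, 8 and 9 without RES-A replicates 1, 2 and 3), and 468 to 879 windows higher and 515 to 759 lower. Regions separating the groups for RES-A and LNCaP numbered 17342 and 9671 with all deposited peaks, 3376 and 2457 with the 25000 top-ranked, 16978 and 9463 at a q of at most 0.01, and 1071 and 579 with no peak of any rank allowed. Shared regions higher and lower in RES-A numbered 3265 and 2646 of 25181 with the 50000 top-ranked peaks, 35847 and 34866 of 179235 with a peak in at least 3 of 6 libraries, and 7362 and 8481 with fold enrichment. By pileup, 1 arm was higher and 5 were lower with fold enrichment, and 11 were higher with quantile normalization. The cause was not tested. With peaks at a q of at most 0.01 the difference in peak number was 2509.67. The other counts of regions, arms and windows stayed within 1.5 times those of the report under every other alternative run. Same-numbered libraries share only a number: deviations from the group means correlated at 0.02, 0.04 and -0.04. With the replicate block 13601 shared regions were higher and 13850 lower, 12 and 15 arms differed by share, 7 and 16 by pileup, 710 and 667 windows, and the peak number differed by 4185.67 (exact sign-flip p = 0.75, with 0.25 the smallest possible).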
